A study of Mus musculus with 10 samples.

Results

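The nuclear-encoded respiratory chain was read in bone marrow-derived macrophages (BMDMs) of Rac2-/- and WT mice. Its members were all genes whose symbol on the array begins with Nduf, Uqcr or Atp5, or with Cox4 to Cox8, together with Sdha, Sdhb, Sdhc and Sdhd. The rule chooses genes by name, without a measured value, though it was drawn up with earlier results of these data known. Only array features that carry a single such symbol were read, and where a gene had several, the one with the highest mean over the 10 arrays was taken. The rule found 89 genes of 19937 named on the array. By symbol, 43 belong to complex I, 4 to complex II, 8 to complex III, 17 to complex IV and 17 to complex V. Among them 81 encode subunits, 7 are the Ndufaf genes, which encode factors that assemble complex I, and 1, Cox7a2l, encodes a protein that joins complexes III and IV into supercomplexes. Ndufa4 was counted with complex I by its symbol, although its product is now regarded as part of complex IV. Cox7c, Ndufb4 and Ndufb4b lay only on features shared with other symbols and were not analysed here.

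The respiratory chain sits in the inner mitochondrial membrane. Complex I takes electrons from NADH and complex II from succinate, complex III passes them to cytochrome c, and complex IV gives them to oxygen. Complexes I, III and IV pump protons as they do so, and complex V, the ATP synthase, makes ATP from the proton gradient. A few core subunits are encoded by mitochondrial DNA, and the others, read here, are encoded in the nucleus and imported. In macrophages, oxidative phosphorylation is known to be favoured in alternative activation and glycolysis in activation by bacterial products.

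BMDMs were grown in MCSF, the growth factor of the macrophage lineage, and were compared between 5 arrays of Rac2-/- and 5 arrays of WT cells. Rac2 is a small GTPase of blood cells that takes part in the phagocyte oxidase and in cell movement, and Rac2-/- mice lack it in all tissues. Both groups came from male C57BL mice, and the cells had 7 days of MCSF at 50 ng/ml with 20% FBS, were kept at 16% oxygen for 8 days, and received no other treatment. By the labels most adhering cells were Mac1-positive, and the arrays are numbered 1 to 5 in each group. The labels do not tie each array to a mouse of its own, so the p-values below cover the spread between arrays alone, and some of it may be technical. The values are log2 signals, on which a difference of 1 is a doubling, and every difference below is Rac2-/- minus WT. Levels of different features were not set against each other, because probes differ in brightness.

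Rac2 averaged 7.10 ± 0.29 in Rac2-/- BMDMs and 12.10 ± 0.27 in WT BMDMs (SD, n = 5 each), and its difference of -5.00 (SE 0.17, limma adjusted p = 7.73e-07) matched the labels. Arrays 1 and 2 stood apart from arrays 3 to 5 in both groups, with correlations of 0.974 to 0.996 within these sets and 0.934 to 0.955 between them. No label names what separates the sets. Macrophage markers such as Lyz2 were high in both groups, and the mean over the 11 markers was 12.14 to 12.34 in Rac2-/- and 12.11 to 12.30 in WT arrays. The macrophage list nonetheless held Mrc1 at 0.66 (adjusted p = 0.0035), Itgam at 0.33 (adjusted p = 0.0380 in a fit blocked by replicate number) and Fcgr1 at -0.74 (with the block 0.0449). The mean over all 10 mast cell and basophil markers, of which 7 passed the filter, was 5.06 to 5.21 in Rac2-/- and 5.25 to 5.77 in WT arrays, with Hdc at -0.49 (adjusted p = 0.0185). Without Cpa3, which passed the filter through WT arrays alone, the mean over the other 6 that passed was 5.73 to 5.95 in Rac2-/- and 5.94 to 6.63 in WT arrays, and the groups overlapped. Over 10 stromal markers the mean was 6.15 to 6.83 in Rac2-/- and 6.59 to 7.01 in WT arrays. Dcn was at -1.21 and Sparc at -0.78 (with the block 0.0173 and 0.0228). Pdgfrb went the other way, at 0.62 (with the block 0.0302), and 3 of the 9 that passed the filter had a higher mean in Rac2-/- BMDMs. Over 7 dendritic cell markers the mean was 5.692 to 6.004 in Rac2-/- and 5.855 to 6.181 in WT arrays. Ccr7 was at -0.91 (adjusted p = 0.0141) and Siglech at -0.62 (with the block 0.0118). Xcr1 went the other way, at 0.61 (with the block 0.0088), and 3 of the 7 had a higher mean in Rac2-/- BMDMs. The mean over 11 markers of cycling cells was 7.64 to 10.13 in Rac2-/- and 7.20 to 7.99 in WT arrays. Rac2-/- array 5 was at 10.13 and the other Rac2-/- arrays were at no more than 8.08. The part of these cells in the results below was not tested, and a bulk array cannot tell fewer cells of a type from less RNA per cell.

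No single member passed the test that leaves the array sets out of the model. Of the 88 members that passed the filter on low values, 0 were past an adjusted p of 0.05 in the limma fit over all features, in which 1.9% of features were, 0.795% higher and 1.11% lower in Rac2-/- BMDMs. At an unadjusted p under 0.05 there were 3 members, Cox6a2, Cox6a1 and Cox7a1, and 10.4% of features. Only Cox7b2, the testis form of a complex IV subunit, was left out by the filter, at 4.06 ± 0.17 in Rac2-/- and 3.93 ± 0.09 in WT BMDMs (SD, n = 5 each).

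The differences were small, but most had the same sign. The mean was higher in Rac2-/- BMDMs for 67 of 88 members, 76.1%, and for 49.9% of all features. The median difference was 0.10 over the members and -0.0003 over all features, and the quartiles of the members were 0.02 and 0.21. A difference of at least 0.2 toward Rac2-/- was found for 26 members (13.5% of features), and one of that size toward WT for 4 (12.3% of features). Of the 66 members at or above the lower quartile of their own signal, 8.80, 56 were higher in Rac2-/- BMDMs, 84.8%, as were 55% of the single-symbol features in that range, a background chosen after the values were seen. These are counts of genes that share the same 10 arrays, and no test was made of the list.

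**Figure D1:**
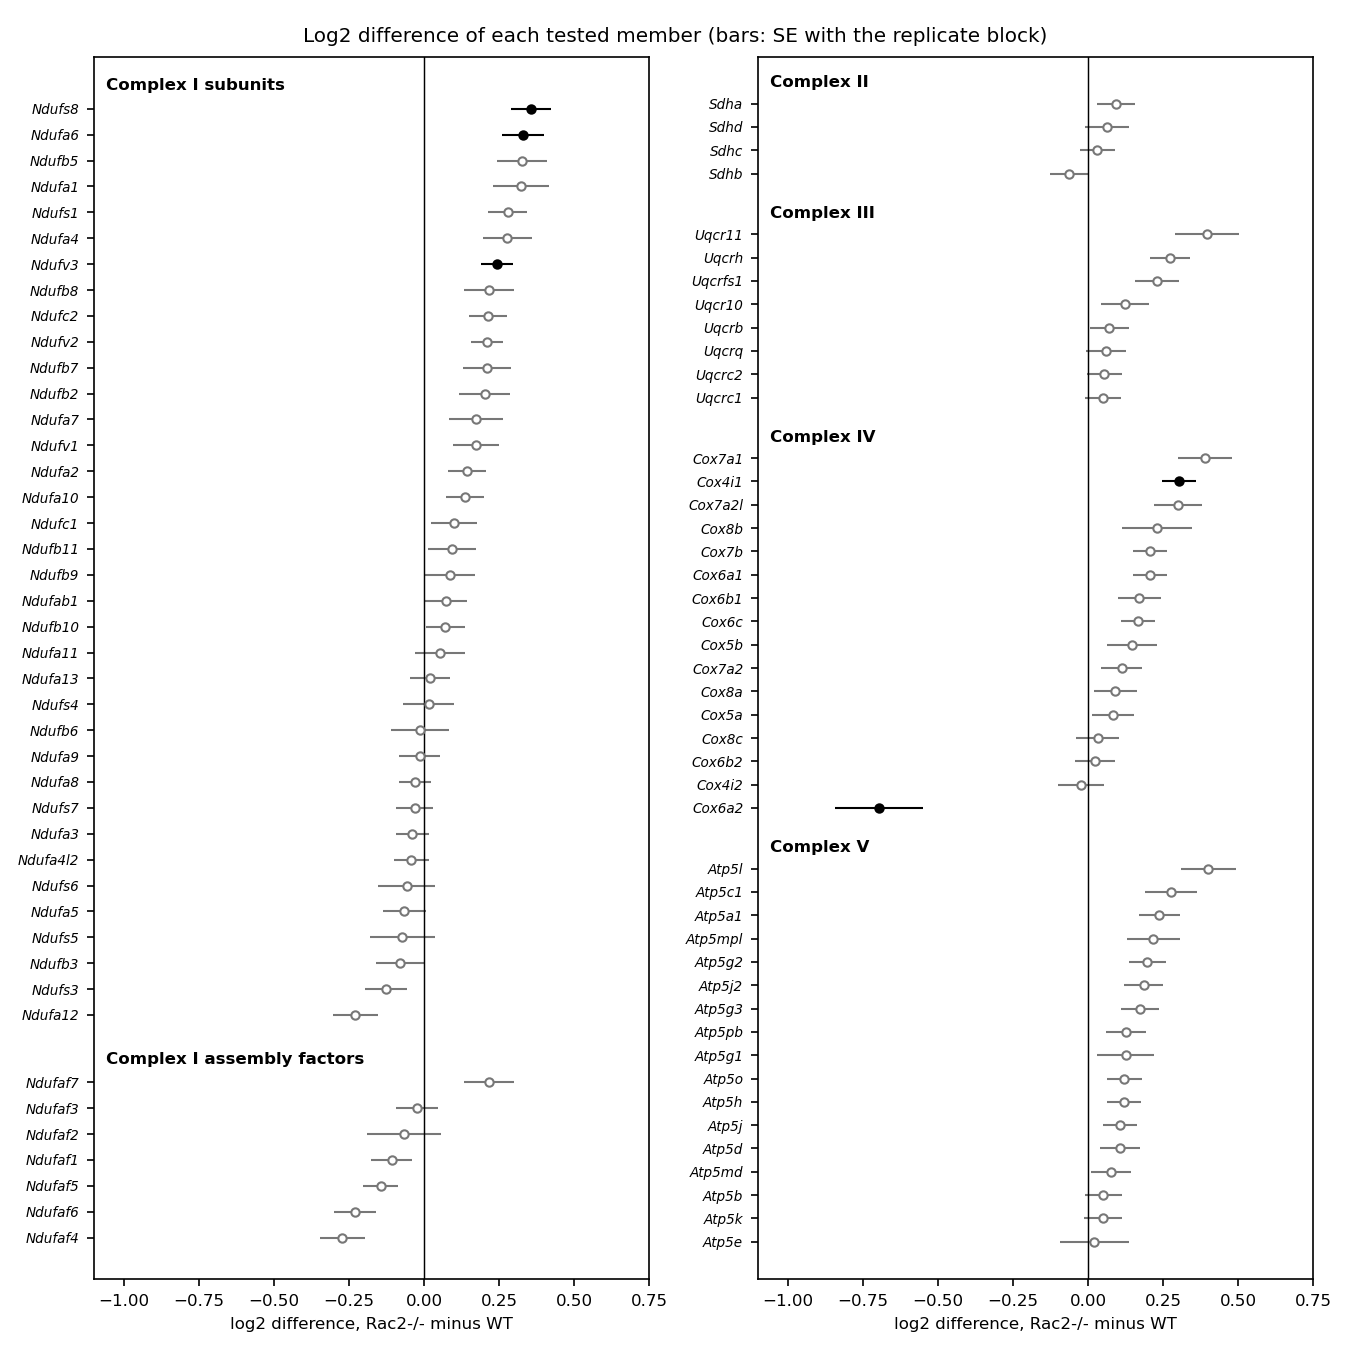
Log2 difference, Rac2-/- minus WT, of each of the 88 tested members by complex (horizontal axis, with 0 marked). Points are differences of means over 5 arrays in each group and bars are standard errors from the fit with the replicate number as a block; filled points are the 5 members past an adjusted p of 0.05 in that fit. All members of complexes III and V lie right of 0, the Ndufaf genes lie left of it but for Ndufaf7, and Cox6a2 lies farthest from 0 at -0.70.

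The 2 sets of arrays carried the same lean. The median over the members was 0.08 within arrays 1 and 2 and 0.11 within arrays 3 to 5. Within arrays 1 and 2, 66 of the 88 members were higher in Rac2-/- BMDMs (50.84% of features), and within arrays 3 to 5, 68 were (49.8% of features). In both sets 59 members were higher in Rac2-/- BMDMs and in both sets 13 were lower, counts that were not made over all features. Setting same-numbered arrays against each other, the median difference of the members was 0.05, 0.16, 0.14, 0.05 and 0.21 in pairs 1 to 5, with 51, 69, 62, 56 and 67 of the 88 members higher in the Rac2-/- array. Over all features the medians of the 5 pairs lay between -0.01 and 0.02. The share of all features higher in the Rac2-/- array was 52.0%, 49.9%, 47.7%, 53.6% and 50.4% in pairs 1 to 5. The members' median was above that of all features in each pair, least so in pairs 1 and 4. In all 5 pairs the Rac2-/- array was the higher for 31 members, 35.2% (11.9% of features), and the lower for 7 (10.1% of features). Among the 66 members of higher signal 28 were higher in 5 of 5 pairs, 42.4%, against 22.9% of the features in that range. Without Rac2-/- array 5, the one highest in cycling markers, 65 of 88 members were higher in Rac2-/- BMDMs and the median was 0.10. This does not take away the difference in cycling markers, of which 10 of 11 were higher in Rac2-/- BMDMs. Their median difference was 0.28 within arrays 1 and 2, and their part in the lean was not tested.

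**Figure D2:**
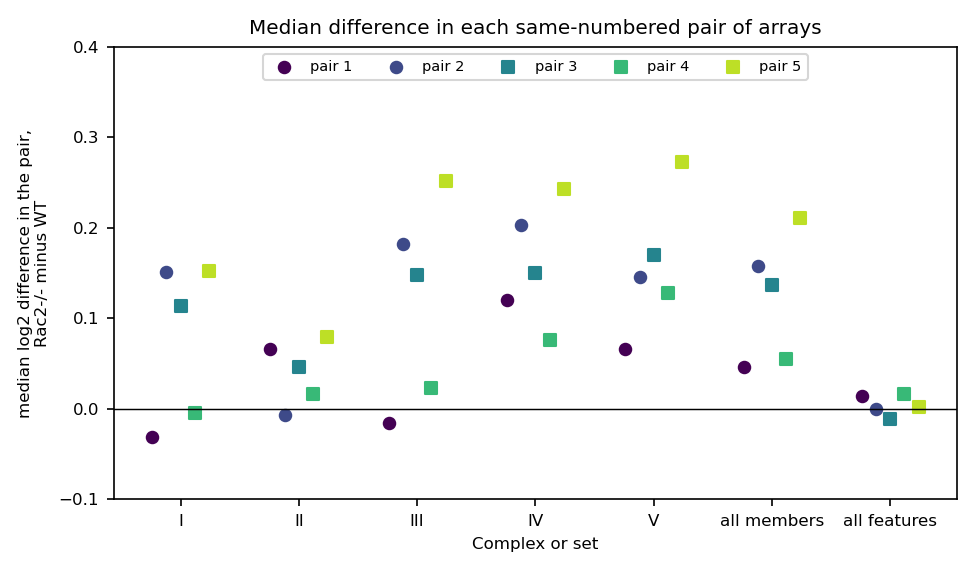
Median log2 difference (vertical axis, Rac2-/- minus WT) over the members of each complex, over all members and over all features, in each of the 5 same-numbered pairs of arrays; circles are pairs 1 and 2, squares pairs 3 to 5. Complexes IV and V lie above 0 in all 5 pairs, while all features lie within -0.01 to 0.02.

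The members differed far more between the array sets than between genotypes, so fits that take the sets into account are given beside the one without them. The median size of the difference between arrays 3 to 5 and arrays 1 and 2 was 0.46 over the members and 0.25 over all features, against a median size of 0.12 and 0.10 for the genotype difference. With the replicate number as a block, 5 members were past the threshold, and 6.35% of features: Ndufs8, Cox4i1, Ndufa6 and Ndufv3 higher (3.32% of features) and Cox6a2 lower (3.03% of features) in Rac2-/- BMDMs. With a term for the array set there were 17 members, 19.3%, and 9.34% of features. Of these 15 were higher (4.98% of features) and 2, Cox6a2 and Ndufaf4, were lower (4.36% of features) in Rac2-/- BMDMs. Within arrays 3 to 5 alone, 7 members were past it (5.5% of features), 6 of them higher (2.46% of features) and Cox6a2 lower (3.04% of features) in Rac2-/- BMDMs. Within arrays 1 and 2, where each group has 2 arrays, 0 members and 0.0074% of features were past it in limma. With array weights 1 member was, Cox6a2, and 6.7% of features. The block share of members was thus near that of all features, and the share with the array-set term was above it.

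**Figure D3:**
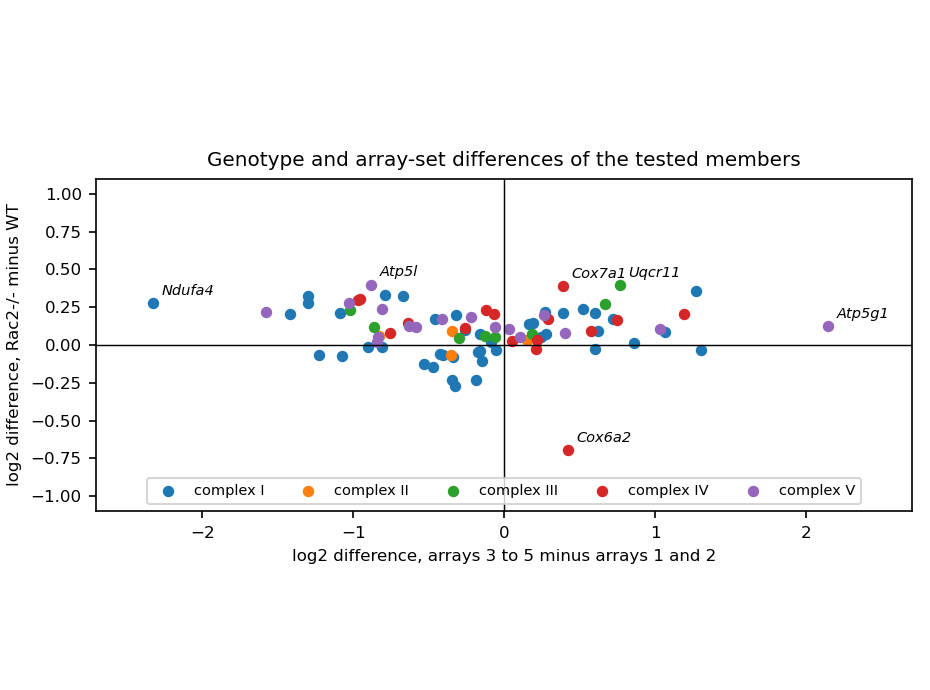
Each tested member's log2 difference between genotypes (vertical axis, Rac2-/- minus WT) against its log2 difference between array sets (horizontal axis, arrays 3 to 5 minus arrays 1 and 2, over both genotypes), coloured by complex. The horizontal spread, with Ndufa4 at -2.33 and Atp5g1 at 2.15, is far wider than the vertical one.

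The start regions of the members were searched for 3 motifs known from respiratory chain genes, in RefSeq promoter stretches of GRCm38.p6 that run 250 bases before to 50 after the start site. Such a stretch was at hand for 73 of the 89 members. The letters CGCATGCG, bound by NRF1, an activator of many of these genes, were found on either strand in 11 members, 15.1%, and in 1.87% of all promoters in the table. CCGGAAG, the core of ETS factors such as GABP, was found in 18 members, 24.7% (8.86% of all promoters), and AAGATGGC, the core of YY1, in 10 of the 73, against 2.75% of all promoters. Neighbouring matches can share letters, as the ETS and YY1 cores do in AAG, and 40 of the 73 members held no match. Counted by promoter and against promoters of coding genes alone, the shares were 14.1% and 2.52% for NRF1, 23.1% and 11.6% for ETS, and 12.8% and 3.05% for YY1. Members with and without the NRF1 letters had median differences between genotypes of 0.05 and 0.12, those with and without the ETS letters 0.10 and 0.12, and those with and without the YY1 letters 0.06 and 0.12. A match is a string of letters and no evidence of binding in these cells. The 170 bases that end at the start site are shown for 5 members described below, 4 with a higher and 1 with a lower mean in Rac2-/- BMDMs, to show where the letters lie; capitals mark a match to one of the motifs on either strand. Cox6a1 is on the minus strand at chr5:115348959-115349128, with NRF1 letters from position -161 and ETS letters from -16 relative to the start site. Atp5g2 is on the minus strand at chr15:102671048-102671217, with NRF1 letters from -41. Uqcr11 is on the minus strand at chr10:80406822-80406991, with ETS letters from -66, and with NRF1 letters from -5 that cross the start site, so that they run past the stretch shown and are left in lower case. Uqcrh is on the minus strand at chr4:116075071-116075240, with ETS letters from -10. Ndufaf4 is on the plus strand at chr4:24897913-24898082, with NRF1 letters from -112.
Cox6a1: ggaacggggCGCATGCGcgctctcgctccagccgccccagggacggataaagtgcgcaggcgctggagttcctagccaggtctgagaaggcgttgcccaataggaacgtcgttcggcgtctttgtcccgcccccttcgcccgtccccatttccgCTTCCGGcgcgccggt
Atp5g2: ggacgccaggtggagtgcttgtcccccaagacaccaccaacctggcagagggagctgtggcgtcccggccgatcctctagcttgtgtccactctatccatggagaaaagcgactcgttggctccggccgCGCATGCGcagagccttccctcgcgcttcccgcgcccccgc
Uqcr11: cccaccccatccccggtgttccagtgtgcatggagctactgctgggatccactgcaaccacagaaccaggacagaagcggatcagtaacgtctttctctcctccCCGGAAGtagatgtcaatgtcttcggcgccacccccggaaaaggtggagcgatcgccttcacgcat
Uqcrh: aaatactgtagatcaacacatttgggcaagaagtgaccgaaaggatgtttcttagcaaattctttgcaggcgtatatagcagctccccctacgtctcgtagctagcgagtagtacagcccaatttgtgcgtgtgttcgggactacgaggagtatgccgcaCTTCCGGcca
Ndufaf4: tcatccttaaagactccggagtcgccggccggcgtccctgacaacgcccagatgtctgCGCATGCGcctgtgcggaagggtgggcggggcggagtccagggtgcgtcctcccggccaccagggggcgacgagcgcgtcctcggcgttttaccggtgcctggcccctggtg

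Complex I had 25 members with a higher and 18 with a lower mean in Rac2-/- BMDMs, and a median difference of 0.07. Its 6 core subunits, which carry the flavin and the iron-sulfur clusters that pass electrons from NADH to ubiquinone, had a median of 0.19, and 4 of them were higher in Rac2-/- BMDMs. The 30 accessory subunits, which surround and stabilise the core, had a median of 0.08, with 20 higher.

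Ndufs8 encodes an iron-sulfur core subunit near the ubiquinone site. It read 9.42, 9.42, 10.56, 10.53 and 10.76 in Rac2-/- arrays 1 to 5, against 9.04, 8.90, 10.31, 10.28 and 10.38 in WT arrays 1 to 5. Each Rac2-/- array was above its WT partner, yet the groups overlapped because arrays 3 to 5 were higher by 1.27 in both. Its difference of 0.36 (1.28-fold) had an SE of 0.40 and an adjusted p of 0.971 in limma, and an SE of 0.065 and an adjusted p of 0.0281 with the replicate block. Ndufa6, an accessory subunit of the LYR family, read 9.73, 9.89, 9.20, 9.12 and 9.12 in Rac2-/- arrays, against 9.58, 9.69, 8.76, 8.70 and 8.69 in WT arrays. Here arrays 1 and 2 were the high ones in both groups, and the difference was 0.33 (SE 0.25, adjusted p = 0.869, with the block 0.0461). Ndufv3, an accessory subunit beside the flavin-bearing core, read 8.81, 8.86, 9.40, 9.39 and 9.35 in Rac2-/- arrays, against 8.59, 8.65, 9.14, 9.12 and 9.11 in WT arrays. All 5 of its pairs differed by a like amount, and its difference was 0.24 (SE 0.17, adjusted p = 0.826, with the block 0.0487).

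With the array-set term, 4.98% of features were past the threshold and higher in Rac2-/- BMDMs. A further 3 subunits of complex I were among them, and were not past it with the block. They were Ndufs1, an iron-sulfur core subunit (0.28, adjusted p = 0.0182 with that term), Ndufb5 (0.33, 0.0307, and 0.0364 within arrays 3 to 5) and Ndufa1 (0.32, 0.0405), accessory subunits of the membrane arm. In the fit without a term their adjusted p was 0.803 to 0.998. Ndufa10 and Ndufb8, the complex I subunits with the smallest unadjusted p in that fit, both accessory, differed by 0.14 and 0.22 (adjusted p = 0.746 and 0.777). Ndufa12, an accessory subunit, had the lowest difference among the subunits of complex I, -0.23. It was lower in Rac2-/- BMDMs in all 5 pairs, and its adjusted p was 0.806, or 0.134 with the block.

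Ndufa4 shows how wide the array sets lay. It read 11.47, 11.33, 9.28, 9.05 and 9.26 in Rac2-/- arrays, against 11.38, 11.15, 8.80, 8.87 and 8.80 in WT arrays. Arrays 1 and 2 were thus over 2 log2 units above arrays 3 to 5 in both groups. The Rac2-/- array was the higher in all 5 pairs, by 0.28 on average, with an SE of 0.72 in limma and an adjusted p of 0.105 with the block. Ndufa4l2, its paralog, known as a hypoxia-induced gene, averaged 5.89 ± 0.08 in Rac2-/- and 5.94 ± 0.15 in WT BMDMs (SD, n = 5 each), a difference of -0.04.

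The assembly factors of complex I leaned the other way. Of the 7 Ndufaf genes, 6 had a lower mean in Rac2-/- BMDMs, with a median of -0.11. Past the threshold were 0 without a block or with it (1.9% and 6.35% of features). Ndufaf4, which acts together with Ndufaf3 in an early step of assembly, read 8.01, 7.98, 7.63, 7.60 and 7.57 in Rac2-/- arrays, against 8.34, 8.03, 7.89, 7.84 and 8.05 in WT arrays. It was lower in each pair, and within each array set the groups did not overlap. Its difference was -0.27 (SE 0.13, adjusted p = 0.525), with an adjusted p of 0.087 with the block and 0.0474 with the array-set term. Ndufaf6, needed for the synthesis of a mitochondrially encoded subunit, was also lower in Rac2-/- BMDMs in 5 of 5 pairs (-0.23, SE 0.14, adjusted p = 0.732). Ndufaf7, a methyltransferase, was the exception at 0.22, higher in 4 of 5 pairs (adjusted p with the block 0.199).

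Complex II, which is also an enzyme of the TCA cycle, had a median of 0.05, with 3 of 4 members higher in Rac2-/- BMDMs. Sdha, the flavoprotein, differed by 0.09 (SE 0.13), Sdhb, the iron-sulfur subunit, by -0.06 (SE 0.13), Sdhc, a membrane anchor, by 0.03 (SE 0.08), and Sdhd, the other anchor, by 0.06 (SE 0.27). With the block, the 95% interval of the difference ran from -0.06 to 0.24 for Sdha, from -0.22 to 0.09 for Sdhb, from -0.11 to 0.17 for Sdhc and from -0.11 to 0.24 for Sdhd. The groups overlapped for all 4 genes, and their adjusted p was 0.992 to 0.999 without the block.

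In complex III the mean of all 8 members was higher in Rac2-/- BMDMs, with a median of 0.10 and a lowest value of 0.05. Cyc1, which encodes cytochrome c1 of this complex, falls outside the naming rule and is counted with other carriers below. It differed by 0.04 (SE 0.19), was at -0.01 within arrays 1 and 2, and was higher in 3 of 5 pairs. Uqcr11, a small subunit of the membrane part, had the largest difference. It read 8.38, 8.88, 9.66, 9.49 and 9.60 in Rac2-/- arrays, against 8.43, 8.47, 9.06, 9.08 and 8.98 in WT arrays. Rac2-/- array 1 was below its WT partner, and the other 4 Rac2-/- arrays were above theirs. The difference was 0.40 (1.32-fold, SE 0.26, adjusted p = 0.780), with an adjusted p of 0.0829 with the block, 0.0440 with the array-set term and 0.0145 within arrays 3 to 5. A second feature of Uqcr11 gave 0.39. Uqcrh, the hinge protein at which cytochrome c1 meets cytochrome c, differed by 0.27 and was higher in 5 of 5 pairs (SE 0.22, adjusted p = 0.881, with the array-set term 0.0419). Uqcrfs1, the Rieske iron-sulfur protein, differed by 0.23, also in 5 of 5 pairs (adjusted p with that term 0.0492). Uqcrc1 and Uqcrc2, the large matrix-side subunits, differed by 0.05 each.

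Complex IV held the difference farthest from 0 among all members, that of Cox6a2, and the 3 members with an unadjusted p under 0.05. Of its 16 tested members 14 had a higher mean in Rac2-/- BMDMs, with a median of 0.16. Cox6a1 and Cox6a2 encode forms of 1 regulatory subunit, the first found in most tissues and the second in heart and skeletal muscle, and they differed with opposite signs. Cox6a1 read 10.34, 10.37, 10.31, 10.21 and 10.37 in Rac2-/- arrays, against 10.14, 10.18, 10.09, 10.07 and 10.10 in WT arrays. The lowest Rac2-/- array was above the highest WT array, and this gene hardly moved between the array sets (-0.07). Its difference was 0.21 (1.15-fold, SE 0.066, adjusted p = 0.211), with an adjusted p of 0.0838 with the block and 0.0351 with the array-set term. Of all 88 members only Cox6a1 and Atp5j had no overlap with Rac2-/- higher, against 2.18% of features, and 0 had none with Rac2-/- lower, against 2.34%.

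Cox6a2 read 7.05, 6.82, 7.39, 7.39 and 7.27 in Rac2-/- arrays, against 7.26, 7.98, 7.92, 7.91 and 8.33 in WT arrays. WT array 1 lay among the Rac2-/- values, and the other 4 WT arrays lay above all of them. The mean was 1.62-fold higher in WT BMDMs, and log2 values differed by -0.70 (SE 0.19, adjusted p = 0.122), with an adjusted p of 0.0417 with the block, 0.0112 with the array-set term, 0.0293 within arrays 3 to 5 and 0.0128 with array weights. Without WT array 1 it was the sole member past the threshold (adjusted p = 0.0265).

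Cox4i1, the common form of the largest nuclear-encoded subunit, read 11.30, 11.36, 10.41, 10.38 and 10.44 in Rac2-/- arrays, against 11.05, 11.09, 10.04, 10.11 and 10.08 in WT arrays. It was the higher in Rac2-/- in each pair and within each array set, by 0.30 on average (1.23-fold, SE 0.30, adjusted p = 0.947), with an adjusted p of 0.0293 with the block and 0.0048 with the array-set term. Its paralog Cox4i2, known from lung and hypoxia, averaged 6.90 ± 0.13 in Rac2-/- and 6.92 ± 0.18 in WT BMDMs (SD, n = 5 each). Its difference of -0.02 turned to 0.04 within arrays 1 and 2. Cox7a1, the muscle form of subunit VIIa, read 7.53, 7.85, 8.29, 7.90 and 7.92 in Rac2-/- arrays, against 7.24, 7.25, 7.81, 7.83 and 7.42 in WT arrays. It was higher in Rac2-/- in all 5 pairs, and its difference was 0.39 (SE 0.17, adjusted p = 0.439, with the block 0.0531). Cox7a2, the form found in most tissues, differed by 0.11 (adjusted p with the block 0.413).

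The other isoforms that are restricted to certain tissues did not stand apart. Cox6b2 and Cox8c, known from testis, differed by 0.02 and 0.03, and Cox8b, of heart and muscle, by 0.23 (SE 0.12, adjusted p = 0.630). The Cox8b difference was 0.53 within arrays 1 and 2 and 0.03 within arrays 3 to 5. All 3 had low signals, below the array medians of 6.07 to 6.14. Cox6b2 averaged 5.718 in Rac2-/- and 5.694 in WT BMDMs, Cox8c 5.886 and 5.854, and Cox8b 5.775 and 5.545. At such signals a difference near 0 cannot tell an unchanged gene from one not expressed. Their common partners Cox6b1 and Cox8a differed by 0.17 and 0.09. Over the 7 tissue-restricted forms, Cox4i2, Cox6a2, Cox6b2, Cox7a1, Cox8b, Cox8c and Ndufa4l2, the median was 0.02 with 4 higher in Rac2-/- BMDMs. Over the 73 other tested subunits it was 0.12 with 61 higher. The low signals of several restricted forms limit this contrast.

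Complex V had a higher mean in Rac2-/- BMDMs for all 17 members, with a median of 0.13 and a range of 0.02 to 0.40. The Rac2-/- array was the higher in 5 of 5 pairs for 10 of the 17 (11.9% of features, and 22.9% of single-symbol features of higher signal). None of the 17 was past the threshold without a block or with it (1.9% and 6.35% of features). With the array-set term 4 were, all higher in Rac2-/- BMDMs (4.98% of features). Atp5l, subunit g of the membrane part, read 10.64, 11.07, 10.16, 10.02 and 9.94 in Rac2-/- arrays, against 10.59, 10.48, 9.57, 9.64 and 9.56 in WT arrays. Its difference was the largest toward Rac2-/- among all members, 0.40 (1.32-fold, SE 0.29, adjusted p = 0.828, with the block 0.0542, with the array-set term 0.0191). It is represented by 5 features, whose differences ran from -0.01 to 0.40, so this value rests on the feature with the highest mean.

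Atp5g2 encodes subunit c, of which the rotating ring in the membrane is built. It read 11.51, 11.57, 11.87, 11.88 and 11.91 in Rac2-/- arrays, against 11.45, 11.44, 11.62, 11.63 and 11.62 in WT arrays. Within both array sets every Rac2-/- array was above every WT array, and the gap was wider in arrays 3 to 5 (0.26) than in arrays 1 and 2 (0.10), a contrast that was not tested. Its difference of 0.20 was the largest among its 3 features, which ran from 0.07 to 0.20. It had an SE of 0.10 and an adjusted p of 0.611 in limma, and of 0.0448 with the array-set term. Atp5a1 and Atp5c1, the alpha and gamma subunits of the catalytic head and its shaft, differed by 0.24 and 0.28 (adjusted p with that term 0.0322 and 0.0420). Atp5b, the catalytic beta subunit, differed by 0.05 (adjusted p with the block 0.699). Atp5j, coupling factor 6 of the stalk, read 11.37, 11.39, 11.42, 11.40 and 11.42 in Rac2-/- arrays, against 11.33, 11.22, 11.33, 11.34 and 11.26 in WT arrays. Its arrays lay closer together than those of most members, and its difference was 0.11 (SE 0.062, adjusted p with the block 0.340). Atp5j2, subunit f of the membrane part, differed by 0.18 (SE 0.098, adjusted p = 0.630). A promoter of Atp5j was the only one among the members to hold all 3 kinds of motif.

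**Figure D4:**
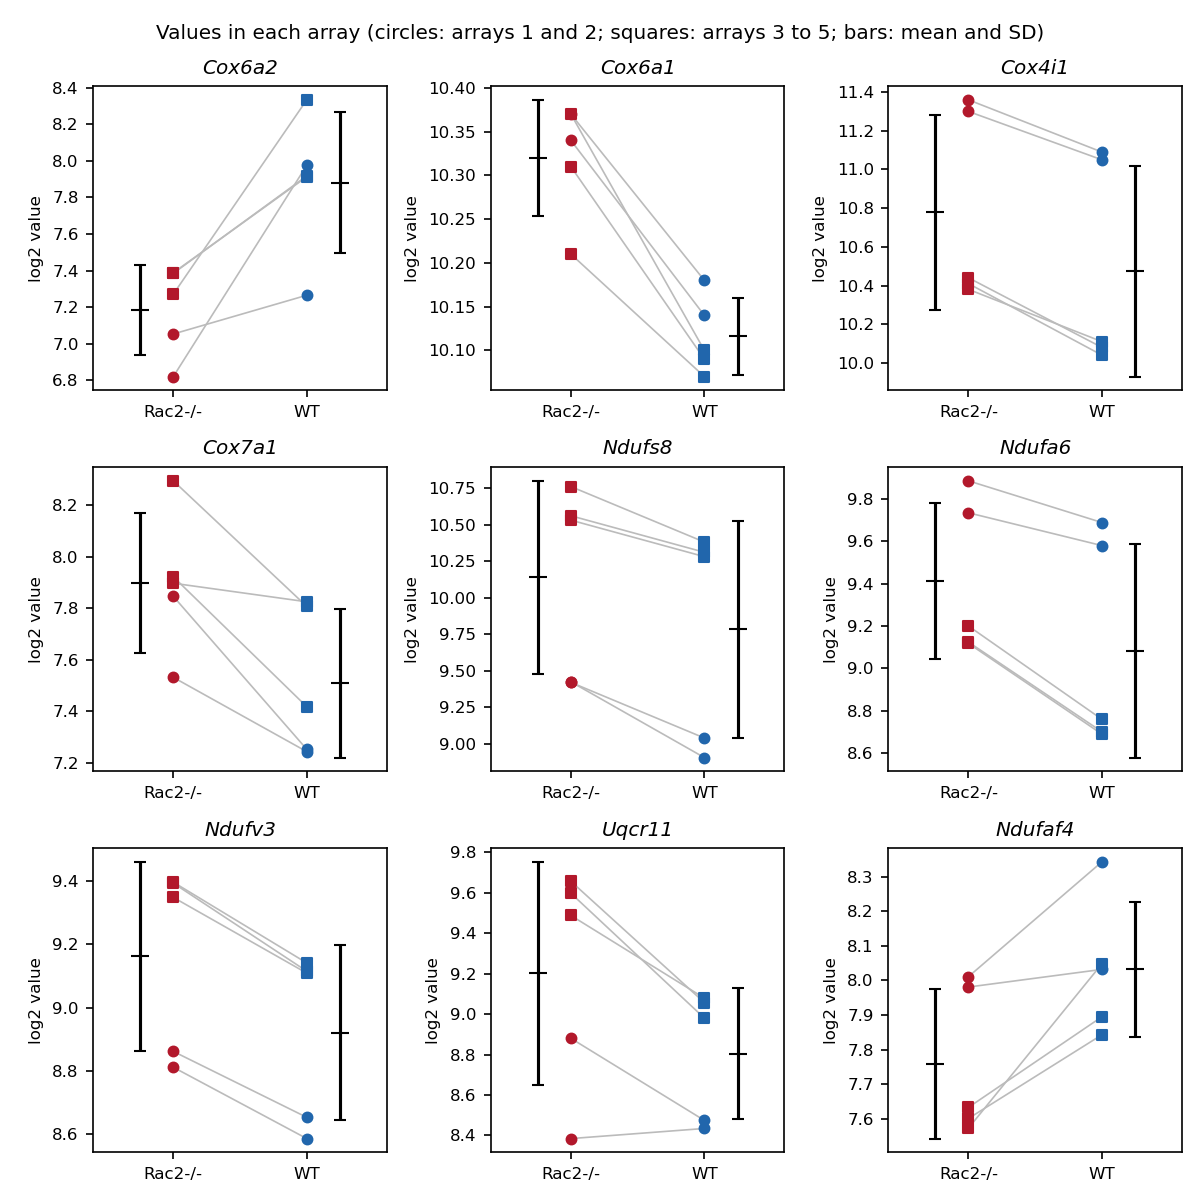
Log2 value (vertical axes, each with its own scale) of 9 members in every array, Rac2-/- left and WT right. Circles are arrays 1 and 2, squares arrays 3 to 5, grey lines join same-numbered arrays, and bars give the mean and SD of 5 arrays. Lines slope down to WT for the members with higher Rac2-/- values and up to WT for Cox6a2 and Ndufaf4, and in most panels the array sets lie farther apart than the genotypes.

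Of the 17 members represented by several features, the features shared a sign in 13 and differed in sign in Atp5g1, Atp5l, Cox5b and Ndufab1. Subunit genes have many processed copies in the genome, and the annotation does not say which feature lies on the gene and which could also read a copy. Among the 88 members, 26 showed no overlap between the genotypes within arrays 1 and 2 nor within arrays 3 to 5 with Rac2-/- higher, 29.5% (7.71% of features, with 23 of the 66 members of higher signal, 34.8%, against 17.3% of the features in that range), and 2, Cox6a2 and Ndufaf4, with Rac2-/- lower (6.19% of features).

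Genes of the chain or serving it that the naming rule leaves out were read from 3 lists. Of 37 tested assembly factors outside the naming rule, 13 had a higher mean in Rac2-/- BMDMs, with a median of -0.07, and 1, Sco1, fell past the threshold (1.11% of all features). Sco1, which delivers copper to complex IV, read 8.07, 7.65, 7.56, 7.62 and 7.32 in Rac2-/- arrays, against 8.92, 9.16, 8.33, 8.46 and 8.29 in WT arrays. The groups did not overlap, and the difference was -0.99 (SE 0.20, adjusted p = 0.0316, with the block 0.0082). The adjusted p stayed under 0.05 in 2 of the 10 fits that left out 1 array and was at most 0.0905 in the others. Foxred1, a complex I assembly factor, differed by -0.25 (SE 0.086, adjusted p = 0.255). With the block, Cox18, which inserts a mitochondrially encoded subunit of complex IV (-0.50, adjusted p = 0.0126), and Coa5, a complex IV assembly factor (-0.49, adjusted p = 0.0311), were lower past the threshold as well as Sco1, 3 of the 37 (3.03% of all features).

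Of 13 tested genes for other electron carriers and regulators of the ATP synthase, 8 had a higher mean in Rac2-/- BMDMs. Their median was 0.04, with 0 past the threshold (1.9% of features). Cycs, which encodes cytochrome c, read 10.48, 10.53, 11.45, 11.26 and 11.45 in Rac2-/- arrays, against 11.11, 11.34, 11.78, 11.62 and 11.84 in WT arrays. It was lower in each Rac2-/- array than in its WT partner, by -0.50 on average (SE 0.24, adjusted p = 0.514, with the block 0.0259). Coq2, of ubiquinone synthesis, also differed by -0.50 (SE 0.17, adjusted p = 0.251, with the block 0.0131). With the block, Cycs and Coq2 were the 2 of the 13 past the threshold and lower (3.03% of all features). Of 17 tested regulators of mitochondrial biogenesis, 10 had a higher mean in Rac2-/- BMDMs, with a median of 0.06 and 0 past the threshold (1.9% of features). With the block 1 of them, Hif1a, was past it and higher (3.32% of features). Hif1a, the oxygen-regulated factor that restrains mitochondrial respiration, differed by 0.71 (SE 0.21, adjusted p = 0.172, with the block 0.0378), and Tfb2m, a mitochondrial transcription factor, by 0.31 (SE 0.17, adjusted p = 0.621).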

How the data were processed

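The authors made the deposited log2 values with RMA, which corrects background, quantile-normalizes the arrays and summarizes probes. The base is read from the range (1.69 to 13.7) and the array medians (6.07 to 6.14). The methods name a filter to 27031 genes and removal of a batch effect with ComBat. The deposited table held 34760 features and still showed the array sets, whose batches no label names.

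Here features were ranked by their fourth-highest value, the leading 27031 (4.73 and above) were kept, and differences were tested in R 4.3.3 with limma 3.58.1 (lmFit, eBayes, no block), adjusted by Benjamini-Hochberg over all of them, with a threshold of 0.05. The number of arrays limits the precision.

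The members and gene lists were chosen with earlier results of these data known. The text names Rac2, members past the threshold, the 2 smallest p of each complex and of the Ndufaf genes, the 3 largest differences in each direction, members left out by the filter, tissue-restricted isoforms with their common partners, the complex II genes, and the leading genes of the other lists. Others, among them those past the threshold under an alternative alone, were chosen after their values were seen.

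Same-numbered arrays were treated as pairs, which no label states. After group means were subtracted, arrays that share a number correlated at 0.493 to 0.716, and other numbers of the same array set at 0.476 to 0.724. Of the 10 arrays, 5 were closest to the array of the other genotype with their own number. The values thus do not show a pairing beyond the array sets, and the replicate block and the counts over pairs assume it. Alternatives were the filter, the replicate block, an array-set term, fits within each set, trended and robust variance, array weights, median centring, quantile normalization, the mean of a gene's features and leaving out each array. Gene names came from the platform annotation, and promoters from RefSeq.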

Additional observations from a re-analysis of the deposited data

Results flagged for a closer look

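Of 88 groups of 5 arrays tested for a value far from the others, 3 held one, a smaller share than the about 1 in 20 that chance gives. A group was a single gene in a single genotype, so these are not the 88 tested members, and not every member was checked. Ndufa12, an accessory subunit of complex I, read 9.05 in Rac2-/- array 2, against 8.54 to 8.66 in the other Rac2-/- arrays. Ndufb8, an accessory subunit of the membrane arm of complex I, read 8.64 in Rac2-/- array 1, against 9.18 to 9.39 in the other Rac2-/- arrays. In WT array 1 it read 8.74, against 8.95 to 9.03 in the other WT arrays, so the low value of this gene was in array 1 of both genotypes.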

How the results depend on the processing

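The number of members past the threshold was 0 and became 5 with the replicate block, 17 with the array-set term, 7 within arrays 3 to 5, 1 with array weights and 0 to 1 when 1 array was left out, the 1 being Cox6a2 without WT array 1. The number of features past it was 514, and became 1716 with the replicate block, 2524 with the array-set term, 1487 within arrays 3 to 5, 1811 with array weights, 2 within arrays 1 and 2, and 245 (without WT array 3) to 625 (without Rac2-/- array 1) when 1 array was left out. The fits within a set used fewer arrays, and the cause of the other changes was not tested. The median over the members was 0.10 and ranged from 0.08 to 0.12 over all 20 alternatives, and 59 (without Rac2-/- array 2) to 69 of the 88 members had a higher mean in Rac2-/- BMDMs. The 43 genes compared were those named by a fixed choice and the members past the threshold with the block or array-set term. Of these, 5 turned sign in some fit. Other genes the text names were not counted, among them Uqcrc1, at -0.0069 to 0.101 when 1 array was left out. Leaving out 1 array gave -0.0755 to 0.0306 for Cox4i2, -0.026 to 0.195 for Cox8a, -0.00968 to 0.103 for Cox8c, -0.071 to 0.673 for Ndufa4 and -0.0894 to 0.201 for Sdhd, and Cox4i2 was at 0.0389 within arrays 1 and 2. In the fit without a term each of these 5 differences was smaller than its standard error. With the block, those of Ndufa4 (0.28, SE 0.08) and Cox8a (0.09, SE 0.07) were larger than it.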
